A study of Mus musculus with 6 samples.

Results

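Genes of the myoblast fusion machinery other than the muscle fusogens were followed in C2C12 myotubes given TWEAK, a cytokine of the tumour necrosis factor family that acts through the receptor Fn14. The members were Dysf, Myof, Cav3, Cd9, Cd81, Ptgfrn, Kirrel, Dock1, Elmo2 and Rac1, chosen by gene name for their roles in membrane repair, caveolae, tetraspanin complexes, cell recognition and actin signalling. All 10 were found among the 49592 genes of the table, and all 10 reached the expression minimum that left 12770 genes for testing. C2C12 cells are mouse myoblasts of an established line, which fuse into myotubes when serum is lowered. The TWEAK group was 3 libraries from cultures differentiated for 3 days in medium with 2% HS and then exposed to 10 ng/ml TWEAK for 12 h. The untreated group was 3 libraries from cultures differentiated in the same way without TWEAK. Libraries were made from poly(A)-enriched RNA and carry trial numbers 1, 2 and 3. Whether a trial was its own culture is not in the labels, so the p-values reflect library-to-library spread that may be technical.

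Myoblasts fuse after they recognise each other, bring their membranes close and push against each other with branched actin. Recognition receptors of the immunoglobulin family recruit a module in which Dock1 and the Elmo proteins load Rac1 with GTP, and Rac1 then drives actin polymerisation through the WAVE and Arp2/3 complexes. Ferlins are calcium-binding membrane proteins of vesicle fusion and of sarcolemmal repair, and caveolin-3 forms the caveolae of muscle. In mice, the tetraspanins Cd9 and Cd81 and their partner Ptgfrn restrain fusion. Mouse muscle cells that lack the tetraspanins form oversized myotubes.

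No member passed the test of TWEAK against untreated with group as the only term, 2 passed with a block for the trial, and the differences were small. Expression is given as FPKM, fragment counts scaled by gene length and library size. Of the 10 members, 0 passed an adjusted p of 0.05 in limma, a linear model with moderated variances, on log2(FPKM + 1), against 15.1% of all genes tested. At an unadjusted p under 0.05 there were 2 members, Cav3 and Ptgfrn, both lower with TWEAK, against 30.3% of genes. On reads recovered from the FPKM, limma-voom called 0 members, against 17.2% of genes, with 3 at an unadjusted p under 0.05, against 31.4% of genes. With a replicate block for the trial, limma called 2 members, Cav3 and Ptgfrn, against 27.9% of genes, and both were lower (12.5% of genes passed as lower). With limma-voom and the block, 2 members passed as lower, against 12.3% of genes. The median log2 fold change was 0.00 over the members and 0.01 over all genes tested.

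The libraries held 29978268 to 40916769 recovered reads, and the members 710 to 18912 reads per library. Counting error was therefore at most 3.75% of a member's value, the figure for Dock1. The labels call the cell type myoblast, and all 7 markers of differentiated muscle were above the minimum mean of 0.5 FPKM, with sums of 5450 to 6340 FPKM with TWEAK and 5820 to 6570 FPKM untreated. All 5 fibroblast markers were above it too, with sums of 20.5 to 51.3 FPKM with TWEAK and 24.5 to 47.4 FPKM untreated. Of 5 macrophage and leukocyte markers, Cd68 alone reached it (summed levels of 1.36 to 1.65 FPKM with TWEAK and 1.46 to 1.51 FPKM untreated), and Adgre1 was at 0. Endothelial markers reached it in 0 of 4 cases (sums of 0.0585 to 0.0796 FPKM with TWEAK and 0.0671 to 0.104 FPKM untreated). Adipocyte markers reached it in 0 of 4 cases (sums of 0 to 0.0418 FPKM with TWEAK and 0 to 0.0216 FPKM untreated), with Plin1 at 0.

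The promoters of Cav3 and Ptgfrn are shown because these were the members with the lowest unadjusted p. The sequences are the 250 bases before the RefSeq start in build GRCm38.p6, which is not the build of the expression table, and capitals mark E-boxes (CANNTG, searched on both strands), the motif bound by MyoD-family factors. Cav3 lies at chr6:112459255-112459504 on the plus strand and Ptgfrn at chr3:101110167-101110416 on the minus strand.
Cav3: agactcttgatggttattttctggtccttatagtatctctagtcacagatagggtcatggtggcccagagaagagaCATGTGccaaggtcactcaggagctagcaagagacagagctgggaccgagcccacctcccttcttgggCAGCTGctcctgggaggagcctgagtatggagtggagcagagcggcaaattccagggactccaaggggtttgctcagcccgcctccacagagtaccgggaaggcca
Ptgfrn: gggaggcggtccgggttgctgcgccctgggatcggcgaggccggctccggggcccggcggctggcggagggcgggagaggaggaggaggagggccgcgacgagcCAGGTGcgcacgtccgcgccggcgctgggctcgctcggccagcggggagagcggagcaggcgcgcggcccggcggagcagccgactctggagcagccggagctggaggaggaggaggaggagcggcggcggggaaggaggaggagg
The Cav3 sequence holds 2 E-boxes, CATGTG and CAGCTG, beginning at -174 and -106 from the start, and the Ptgfrn sequence holds 1, CAGGTG, at -146. RefSeq gave 12 promoters of 300 bases for 9 of the members, counting 50 bases after the start. An E-box lay in 8 of these 12, against 72.3% of the 32851 mouse promoters of that length. An NF-kB site matched 0 of the 12, against 8.46% of all, and a MEF2 site matched 1, an alternative Elmo2 promoter, against 3.19%. A match describes the letters in the window and is not evidence of binding.

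Expression differed widely among the members. FPKM is per length, so levels can be set side by side. With TWEAK the order of mean FPKM was Cd81, Cd9, Myof, Ptgfrn, Rac1, Cav3, Kirrel, Dysf, Elmo2 and Dock1, and untreated it was Cd9, Cd81, Myof, Ptgfrn, Cav3, Rac1, Dysf, Kirrel, Elmo2 and Dock1. The tetraspanins lay above 98.1% of tested genes or more, while Dock1 lay above 29.3%. Neighbours overlapped in 3 pairs with TWEAK (Cd81 with Cd9, Myof with Ptgfrn, Kirrel with Dysf). They overlapped in 4 pairs without it, the additional pair being Cav3 with Rac1.

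**Figure D1:**
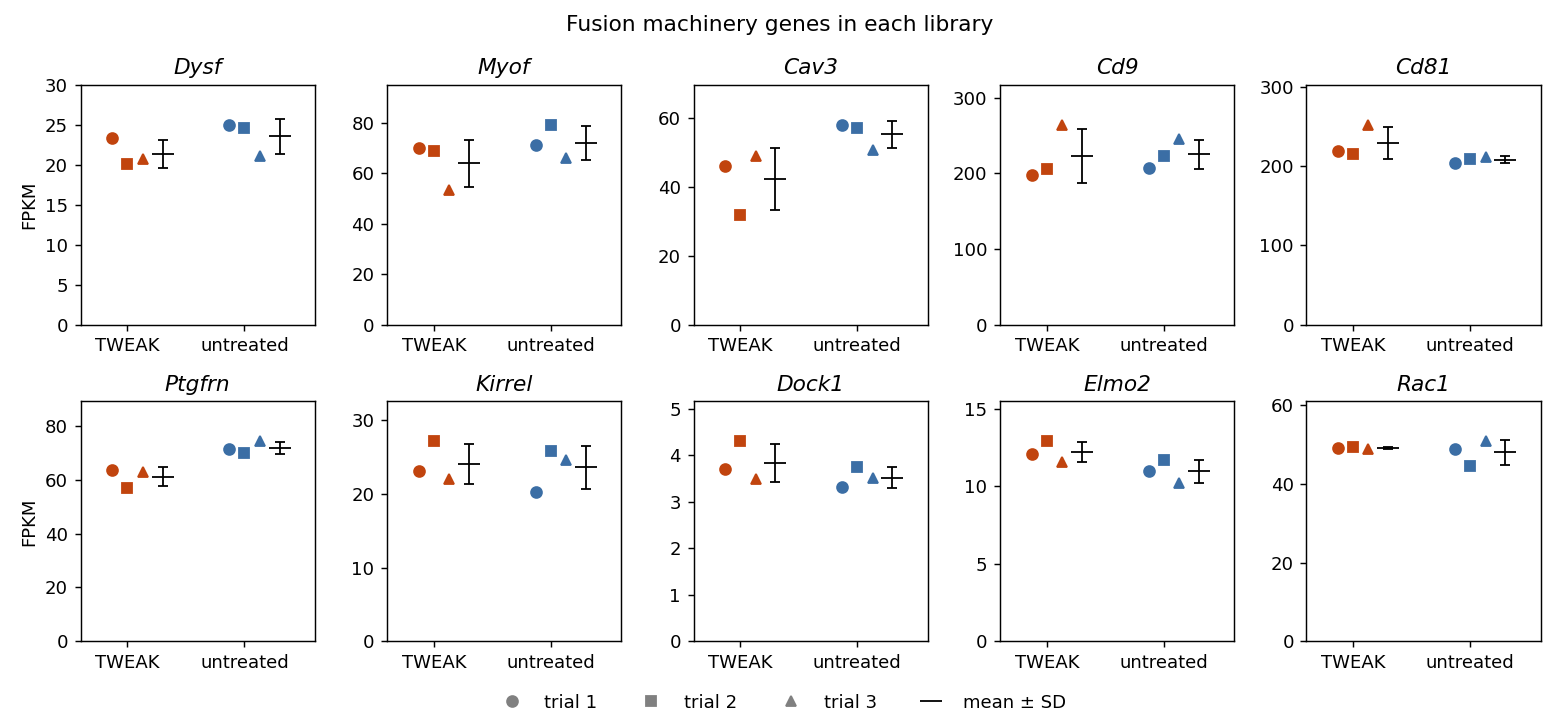
FPKM of each member in the 3 TWEAK libraries (orange, left) and the 3 untreated libraries (blue, right), with the marker shape giving the trial and the bar the mean ± SD. Cav3 and Ptgfrn sit lower and Cd81 higher in every TWEAK library than in any untreated one, while the groups overlap for the other members.

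Groups did not overlap for 3 of 10 members, 2 of them lower with TWEAK and 1 higher. Among all genes tested, 35.9% did not overlap, 15.9% lower and 20.0% higher. Differences were small even where groups separated. The 95% interval of the log2 difference lay within 1.5-fold in both directions for 9 of 10 members, all but Cav3, and for 86.4% of all genes tested.

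**Figure D2:**
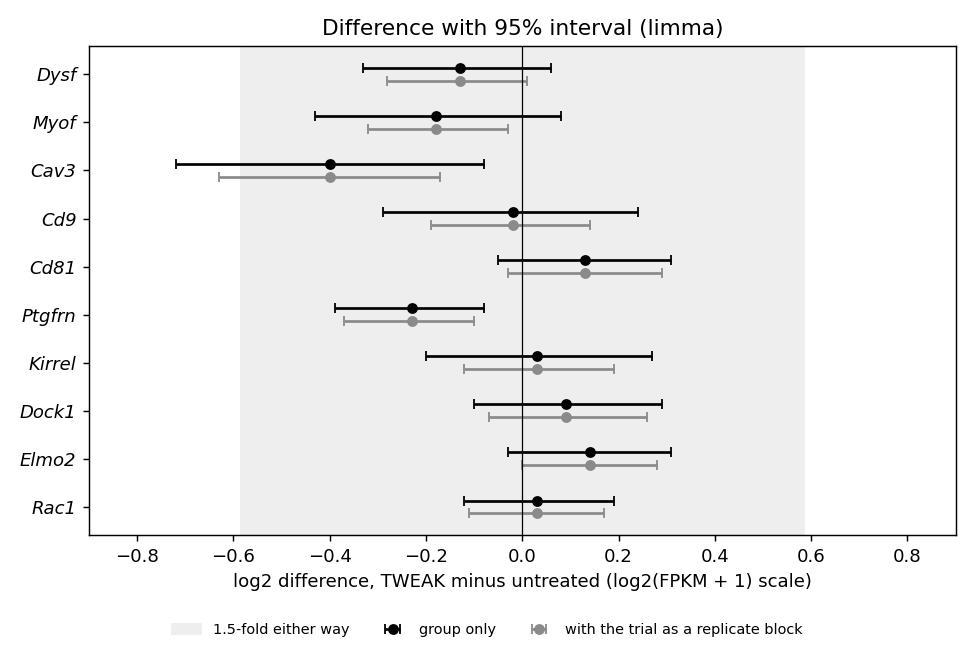
Log2 difference, TWEAK minus untreated, with its 95% interval from limma, with group only (black) and with the trial as a replicate block (grey), on the log2(FPKM + 1) scale. The grey band spans 1.5-fold in either direction. With either fit the Cav3 interval is the one that leaves the band, reaching -0.72 with group only and -0.63 with the block.

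The ferlin genes were both lower with TWEAK in every trial, and neither passed the test. Dysf, which encodes dysferlin, the ferlin required for resealing of the sarcolemma (ENSMUSG00000033788.16, GRCm39 chromosome 6, 83985572 to 84188042), was at 23.4, 20.1 and 20.7 FPKM in TWEAK replicates 1, 2 and 3, against 25.0, 24.6 and 21.1 FPKM in untreated replicates 1, 2 and 3. The groups overlapped, because the lowest untreated library lay below the highest TWEAK library. The log2 fold change was -0.13 (SE 0.09, limma adjusted p = 0.344). Myof, the gene of myoferlin, a ferlin of fusing myoblasts (ENSMUSG00000048612.17, chromosome 19, 37887484 to 38032025), was at 69.8, 68.6 and 53.3 FPKM with TWEAK, against 71.1, 79.1 and 65.8 FPKM untreated. The third trial gave the lowest value in both groups, and the groups overlapped. The Myof log2 fold change was -0.18 (SE 0.11, limma adjusted p = 0.329; 0.0771 with the block). Leaving out TWEAK replicate 3 or untreated replicate 2 brought that adjusted p to 0.742 and 0.632. Without TWEAK replicate 3 the Myof log2 fold change was -0.05.

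Myof stood above Dysf in every library. The log2 ratio of Dysf to Myof averaged -1.53 ± 0.20 with TWEAK and -1.57 ± 0.09 untreated (SD, n = 3 each). The difference of 0.04 was within that spread (two-sided exact permutation p = 0.8, adjusted p = 0.8 over 5 ratios compared). With 3 libraries against 3, an exact permutation test cannot give a p below 0.1. The permutation tests of the 5 ratios did not pair libraries by trial.

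Caveolin-3, the muscle caveolin that binds dysferlin, had the largest difference of the 10. Cav3 (ENSMUSG00000062694.8, chromosome 6, 112436466 to 112449833) was at 46.1, 31.9 and 48.9 FPKM with TWEAK, against 58.0, 57.1 and 50.7 FPKM untreated. Every TWEAK library was below every untreated one, and TWEAK replicate 2 stood apart as the lowest. Means were 42.3 ± 9.12 FPKM with TWEAK and 55.2 ± 4.0 FPKM untreated (SD, n = 3 each), a 1.31-fold lower level. The log2 fold change was -0.40 (SE 0.14), with limma adjusted p = 0.093, or 0.0142 with the block.

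The size of the Cav3 difference rested partly on a single library. Without TWEAK replicate 2 the log2 fold change was -0.21 (limma adjusted p = 0.202), and without TWEAK replicate 3 it was -0.51 (limma adjusted p = 0.0476). Within trials the log2 difference was -0.32, -0.82 and -0.05 for trials 1, 2 and 3. Markers of differentiated muscle went both ways: 4 of 7 had a log2 fold change below 0 and 3 above it, while 2 fell and 0 rose in limma (6.10% of all genes passed as lower). Myh3, the embryonic myosin heavy chain, averaged 615 ± 79.5 FPKM with TWEAK and 1030 ± 126 FPKM untreated (log2 fold change -0.74, limma adjusted p = 0.00615). Actn2, a Z-disc alpha-actinin, was at 35.9, 25.0 and 39.0 FPKM with TWEAK, so that its lowest library was the one lowest for Cav3, against 56.1, 55.9 and 54.6 FPKM untreated. The markers above 0 were Myog, Des and Mymk, at log2 fold changes of 0.23, 0.20 and 0.16. Myog, the myogenic factor myogenin, was at 901, 803 and 774 FPKM with TWEAK, against 774, 746 and 598 FPKM untreated (limma adjusted p = 0.221). The Myog adjusted p was 0.0863 in limma with the block, 0.131 with limma-voom, and 0.00498 with limma-voom and the block. The part of these markers in the Cav3 difference was not tested, and in bulk RNA fewer cells of a type and less RNA per cell cannot be told apart.

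Cav1, the caveolin of most other cell types, was expressed at a similar level, with 31.6, 34.9 and 38.9 FPKM under TWEAK, against 37.4, 43.5 and 51.0 FPKM untreated. Its values overlapped between groups and were highest in trial 3 in both. The Cav1 log2 fold change was -0.31 (SE 0.11, limma adjusted p = 0.104; 0.00236 with the block). The log2 ratio of Cav3 to Cav1 averaged 0.24 ± 0.33 with TWEAK and 0.33 ± 0.32 untreated (SD, n = 3 each). It did not differ beyond that spread (two-sided exact permutation p = 0.7, adjusted p = 0.8 over 5 ratios).

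The tetraspanin genes were the most abundant members. Cd9 (ENSMUSG00000030342.9, chromosome 6, 125437229 to 125471754) was at 198, 206 and 264 FPKM with TWEAK, against 207, 223 and 245 FPKM untreated. The untreated range lay inside the TWEAK range, and trial 3 was highest in both groups. The Cd9 log2 fold change was -0.02 (SE 0.12, 95% interval -0.29 to 0.24, limma adjusted p = 0.916), and it was 0.0067 with limma-voom. Cd81 (ENSMUSG00000037706.18, chromosome 7, 142606476 to 142621671) was at 219, 215 and 252 FPKM with TWEAK, against 204, 209 and 212 FPKM untreated. Each TWEAK library was above each untreated one, with TWEAK replicate 3 the highest. The Cd81 log2 fold change was 0.13 (SE 0.08, limma adjusted p = 0.313; 0.217 with the block). Without TWEAK replicate 3 it was 0.06.

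The tetraspanins were also compared with each other. The log2 ratio of Cd9 to Cd81 averaged -0.05 ± 0.11 with TWEAK and 0.11 ± 0.10 untreated (SD, n = 3 each), and it was lower with TWEAK in 3 of 3 trials. The difference of -0.15 did not pass (two-sided exact permutation p = 0.2, adjusted p = 0.75 over 5 ratios). That test did not pair libraries by trial, so differences between trials entered its spread. In trials 1, 2 and 3 the ratio was -0.14, -0.06 and 0.07 with TWEAK, against 0.02, 0.09 and 0.21 untreated, rising across trials in both groups.

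Ptgfrn encodes an immunoglobulin-domain protein that binds Cd9 and Cd81 directly. Ptgfrn (ENSMUSG00000027864.10, chromosome 3, 100947548 to 101017594) was at 63.5, 57.0 and 63.0 FPKM with TWEAK, against 71.6, 69.9 and 74.3 FPKM untreated. The groups were clearly apart, and within groups the libraries varied little. Means were 61.2 ± 3.62 FPKM with TWEAK and 71.9 ± 2.19 FPKM untreated (SD, n = 3 each), a 1.18-fold lower level. The log2 fold change was -0.23 (SE 0.07), with limma adjusted p = 0.0505, just above the threshold, and 0.0148 with the replicate block. In the authors' deposited table the Ptgfrn log2 fold change is -0.23 with an adjusted p of 0.0188, and it is the 1 member under 0.05 there (20.6% of 15293 genes are). That table places Cav3 at a log2 fold change of -0.39 with an adjusted p of 0.0558.

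Ptgfrn was lower with TWEAK in 3 of 3 trials, by log2 differences of -0.17, -0.29 and -0.23. The 3 trials thus gave similar values. Leaving out TWEAK replicate 3 gave a limma adjusted p of 0.0492, and leaving out TWEAK replicate 2 gave 0.208, while the log2 fold change stayed between -0.2588 and -0.1824 whichever library was left out. The log2 ratio of Cd9 to Ptgfrn averaged 1.84 ± 0.21 with TWEAK and 1.63 ± 0.10 untreated, and it was higher in 3 of 3 trials (SD, n = 3 each; two-sided exact permutation p = 0.3, adjusted p = 0.75 over 5 ratios).

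**Figure D3:**
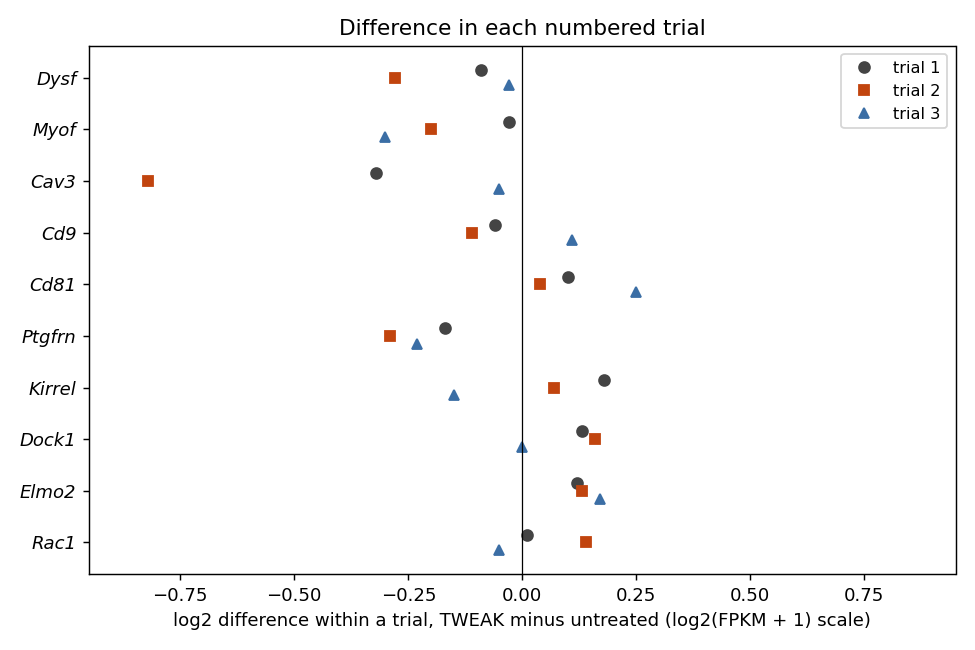
Log2 difference, TWEAK minus untreated, within each of the 3 numbered trials, on the log2(FPKM + 1) scale, with 1 point per trial and member. Dysf, Myof, Cav3 and Ptgfrn are below 0 and Cd81 and Elmo2 above 0 in all 3 trials, and the Cav3 points spread from -0.82 to -0.05.

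Kirrel encodes a mouse relative of the fly receptors that let founder myoblasts recognise their fusion partners. Kirrel (ENSMUSG00000041734.16, chromosome 3, 86985900 to 87082054) was at 23.1, 27.1 and 22.0 FPKM with TWEAK, against 20.3, 25.8 and 24.6 FPKM untreated. The groups overlapped, and trial 2 was highest in both. The Kirrel log2 fold change was 0.03 (SE 0.10, 95% interval -0.20 to 0.27, limma adjusted p = 0.864). Its sign changed to -0.0524 without TWEAK replicate 2 and to -0.0652 without untreated replicate 1.

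The genes of the Dock1, Elmo2 and Rac1 module did not pass either. Dock1, the exchange factor for Rac1 (ENSMUSG00000058325.7, chromosome 7, 134272416 to 134775368), was the lowest member, at 3.71, 4.30 and 3.50 FPKM with TWEAK, against 3.31, 3.75 and 3.51 FPKM untreated. The groups overlapped, and trial 2 was highest in both. The Dock1 log2 fold change was 0.09 (SE 0.09, limma adjusted p = 0.514), with 0.0265 when TWEAK replicate 2 was left out and 0.1446 when TWEAK replicate 3 was. Elmo2, the scaffold that joins Dock1 (ENSMUSG00000017670.17, chromosome 2, 165129951 to 165168399), was at 12.08, 12.91 and 11.55 FPKM with TWEAK, against 11.04, 11.72 and 10.16 FPKM untreated. It was higher with TWEAK in 3 of 3 trials, but the groups overlapped between TWEAK replicate 3 and untreated replicate 2. The Elmo2 log2 fold change was 0.14 (SE 0.08, limma adjusted p = 0.254; 0.119 with the block).

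Rac1 itself, the small GTPase of the module (ENSMUSG00000001847.15, chromosome 5, 143489389 to 143513791), was at 49.1, 49.3 and 49.0 FPKM with TWEAK, against 48.8, 44.5 and 50.8 FPKM untreated. The TWEAK libraries were nearly equal and lay inside the untreated range. Their coefficient of variation was 0.284%, below the 1.28% that counting alone gives for the library with the fewest Rac1 reads. The Rac1 log2 fold change was 0.03 (SE 0.07, 95% interval -0.12 to 0.19, limma adjusted p = 0.787), and it was -0.0011 after quantile normalization. The log2 ratio of Dock1 to Elmo2 averaged -1.45 ± 0.05 with TWEAK and -1.40 ± 0.09 untreated (SD, n = 3 each; two-sided exact permutation p = 0.7, adjusted p = 0.8 over 5 ratios).

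The file marks Dysf, Cd9, Kirrel and Rac1 as overlapping loci, and the use of strand in counting is not given, so reads of overlapping genes cannot be told apart. By position, the most highly expressed gene that overlaps a member was Daglb, which overlaps Rac1 and was at 4.68 FPKM with TWEAK and 4.26 FPKM untreated. The next was the noncoding R74862 at the Cd81 locus, at 1.13 FPKM with TWEAK and 1.11 FPKM untreated. Myof, Cav3 and Elmo2 overlapped no listed gene.

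Some related genes that are not members changed. Of 134 tested genes in 5 lists, 27 passed in limma (20.1%, against 15.1% of all genes), 10 as higher and 17 as lower with TWEAK. The lists were drawn up with earlier results of these data known, so their shares are descriptions only. With the replicate block 42 passed (31.3%, against 27.9% of all genes). Among repair genes, 1 of 29 rose (8.98% of all genes passed as higher) and 5 fell, 20.7% in all, with a median log2 fold change of -0.03. With the replicate block 4 rose and 7 fell, 37.9% in all against 27.9% of all genes. Anxa1, an annexin recruited to membrane wounds, was at 339, 395 and 405 FPKM with TWEAK, against 217, 244 and 261 FPKM untreated (log2 fold change 0.65, limma adjusted p = 0.00376). The groups were well apart. Capn3, the muscle calpain, averaged 9.66 ± 1.61 FPKM with TWEAK and 15.4 ± 0.139 FPKM untreated. The endosomal ATPase gene Ehd3 averaged 4.38 ± 0.149 FPKM with TWEAK and 6.51 ± 0.694 FPKM untreated, and Ano5, an anoctamin of membrane repair, 7.56 ± 0.918 FPKM with TWEAK and 11.4 ± 0.958 FPKM untreated (SD, n = 3 each). These 3 fell, at limma adjusted p values of 0.00485, 0.00722 and 0.0073 for Capn3, Ehd3 and Ano5.

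In the caveolar and tubule list, which shares its compartment with Cav3, 1 of 16 genes rose and 3 fell (25.0%, against 15.1% of all genes), with a median log2 fold change of -0.20 against 0.01 over all genes. With the replicate block 1 rose and 7 fell (8 of 16, against 27.9% of all genes). In limma without the block, 2 genes passed when TWEAK replicate 2 or untreated replicate 2 was left out. Over all genes, 844 of 12775 and 1104 of 12781 passed in those settings, against 1926 of 12770 with every library. Cavin4, the muscle cavin of the caveolar coat, was at 253, 226 and 229 FPKM with TWEAK, against 319, 322 and 288 FPKM untreated. Every TWEAK library was lower. The Cavin4 log2 fold change was -0.39 (limma adjusted p = 0.0134), and it no longer passed without TWEAK replicate 2 (0.07), untreated replicate 1 (0.0605) or untreated replicate 2 (0.0612). Cavin3, another coat protein, rose to 32.6 ± 1.62 FPKM with TWEAK, against 24.2 ± 1.99 FPKM untreated (limma adjusted p = 0.00751). Pacsin1, a membrane-bending protein, fell to 0.963 ± 0.290 FPKM with TWEAK, against 2.35 ± 0.387 FPKM untreated (limma adjusted p = 0.00485). Jph1, a junctophilin that ties the sarcoplasmic reticulum to the tubules, fell to 27.5 ± 1.23 FPKM with TWEAK, against 32.6 ± 0.816 FPKM untreated (SD, n = 3 each). The limma adjusted p of Jph1 was 0.0361, with 0.0342 when TWEAK replicate 1 was left out and 0.066 to 0.142 when any other library was. With limma-voom it was 0.0643.

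Among tetraspanins and their partners, 1 of 20 tested genes rose and 2 fell, with a median log2 fold change of 0.00. That is 15.0%, near the 15.1% of all genes. With the replicate block 2 rose and 2 fell, 20.0% against 27.9% of all genes. Cd82, a tetraspanin found on human muscle stem cells, was at 266, 277 and 275 FPKM with TWEAK, against 172, 180 and 152 FPKM untreated, and so exceeded both Cd9 and Cd81 in mean FPKM under TWEAK. Its log2 fold change was 0.70 (limma adjusted p = 0.000865). Tspan8 fell to 4.78 ± 1.05 FPKM with TWEAK, against 12.8 ± 1.58 FPKM untreated (limma adjusted p = 0.000577). Tspan13 averaged 15.9 ± 5.36 FPKM with TWEAK and 27.8 ± 6.05 FPKM untreated (SD, n = 3 each). Its limma adjusted p of 0.0314 became 0.0513 to 0.111 when any library but TWEAK replicate 3 was left out.

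In the adhesion and recognition list, 2 of 21 tested genes rose and 6 fell (38.1%, against 15.1% of all genes), with a median log2 fold change of -0.15. With the replicate block 2 rose and 7 fell, 42.9% against 27.9% of all genes. In limma without the block, 5 passed when TWEAK replicate 2, untreated replicate 2 or untreated replicate 3 was left out. Over all genes, 844 of 12775, 1104 of 12781 and 1300 of 12778 passed in those settings, against 1926 of 12770 with every library. Cdon, a cadherin-associated receptor that promotes myogenic differentiation, was at 33.5, 28.4 and 26.6 FPKM with TWEAK, against 56.3, 66.1 and 59.7 FPKM untreated. Its log2 fold change was -1.02 (limma adjusted p = 0.000246), the largest in the list, and the groups were far apart. The fallen genes also included the adhesion molecule Jam2 and the integrin subunit Itga3, at log2 fold changes of -0.69 and -0.61 (limma adjusted p = 0.00263 and 0.00407). Il4ra, a subunit of the receptor for interleukin-4, a cytokine that recruits myoblasts to fuse, rose to 11.6 ± 2.03 FPKM with TWEAK, against 7.04 ± 0.916 FPKM untreated (limma adjusted p = 0.011). Igdcc4 rose to 10.7 ± 0.647 FPKM with TWEAK, against 8.10 ± 0.552 FPKM untreated (SD, n = 3 each; limma adjusted p = 0.0147). The Igdcc4 call was lost without TWEAK replicate 2 (limma adjusted p = 0.0612), untreated replicate 2 (0.0557) or untreated replicate 3 (0.0507).

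In the actin list, which holds the partners and effectors of Dock1, Elmo2 and Rac1, 5 of 48 tested genes rose and 1 fell, with a median log2 fold change of -0.01. That is 12.5%, against 15.1% of all genes. With the replicate block 6 rose and 4 fell, 20.8% against 27.9% of all genes. In limma without the block, leaving out TWEAK replicate 2 or untreated replicate 1 left 2 that passed, and leaving out untreated replicate 2 left 3. Over all genes, 844 of 12775, 1099 of 12768 and 1104 of 12781 passed in those settings, against 1926 of 12770 with every library. Arf6, a small GTPase of membrane traffic at the cell edge, was at 49.6, 48.0 and 51.5 FPKM with TWEAK, against 38.1, 36.3 and 39.6 FPKM untreated. The groups were apart, at a log2 fold change of 0.38 (limma adjusted p = 0.00575). The adaptor gene Nck2 rose to 21.0 ± 1.14 FPKM with TWEAK, against 15.1 ± 1.80 FPKM untreated (limma adjusted p = 0.00998). Cyfip2, a WAVE complex subunit, fell to 0.708 ± 0.101 FPKM with TWEAK, against 1.15 ± 0.0381 FPKM untreated (SD, n = 3 each; limma adjusted p = 0.0318). Leaving out any library but TWEAK replicate 1 put Cyfip2 at limma adjusted p values of 0.0613 to 0.125.

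Of the genes named in these lists, 7 no longer passed when no expression minimum was applied. Their limma adjusted p was then 0.0611 for Cavin4, 0.058 for Jph1, 0.149 for Tspan13, 0.0727 for Il4ra, 0.0528 for Igdcc4, 0.0547 for Nck2 and 0.0768 for Cyfip2.

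**Figure D4:**
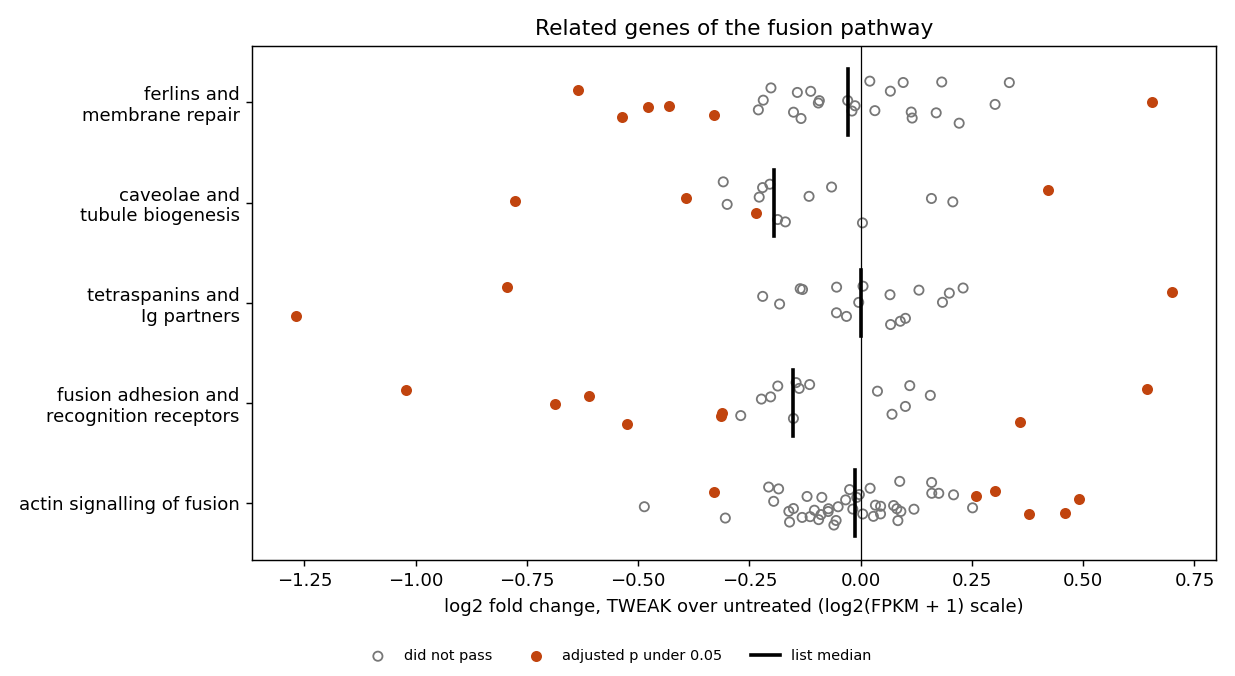
Log2 fold change, TWEAK over untreated, of each tested gene in the 5 related lists, on the log2(FPKM + 1) scale; filled points passed limma's adjusted p of 0.05, open points did not, and bars are list medians. Tspan8 and Cdon are the lowest points and Cd82 the highest, and the caveolar and tubule list has the lowest median, at -0.20.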

How the data were processed

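Per the submitters' processing notes, the authors worked on GRCm39 with DESeq2 1.22.2, HTSeq 0.6.1p2, STAR 2.6.0c and Trim Galore 0.5.0. Their settings, annotation and use of strand were not given in the sources used. The deposited table gives FPKM per library, per the file headers. It also holds the authors' comparison, per the file headers: a mean normalized signal, a score for each test, p-values, and a log2 fold change with a standard error. No per-sample column lacked a sample (0).

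Genes averaging 0.5 FPKM or more were tested with limma-trend on log2(FPKM + 1), with group as the only term, over all 6 libraries (limma 3.58.1, R 4.3.3). Two-sided p-values were adjusted by the Benjamini-Hochberg method over all genes tested, with 0.05 as the threshold. Every fold change is TWEAK over untreated, and the pseudocount understates changes of low genes. The design had named a count test for raw counts, which were not used here. The FPKM are whole reads scaled by length and by library, so reads were recovered (126386 of 126386 values above 0 came out whole, relative tolerance 1e-06). For 196 tested genes, none a member, a common factor was chosen from the deposited mean. The fit was also run on simulated reads without a trial effect, and that run does not measure how the fit behaves on these data. Python 3.11.15 and scipy 1.17.1 were used for the other steps.

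The trial numbers were taken to pair libraries, from the data. Deviations from group means correlated across genes at 0.473, 0.218 and 0.434 between same-numbered libraries, which is above the 0.1 required. Named genes were all members and, in each list, up to 3 risen and 3 fallen genes by adjusted p; genes most alike in pattern were to be named for members past the threshold, and there were none. A gene of the actin list that this rule names is not reported here. Cav1, Daglb, R74862 and the named markers were chosen for their relation to members. Members and lists were chosen with earlier results of these data known.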

Additional observations from a re-analysis of the deposited data

How the results depend on the processing

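The alternatives were pseudocount 0.1, no filter, a minimum mean FPKM of 1, median-ratio rescaling, quantile normalization, the replicate block, limma-voom on recovered reads without and with the block, and leaving out each library. Over 14 alternatives for each of the 10 members, 122 of 140 values kept their direction and their side of the threshold. Ptgfrn passed at limma log2 fold changes of -0.2317 with a minimum mean FPKM of 1 and with the block, -0.247 after median-ratio rescaling, -0.2614 after quantile normalization and -0.2059 with limma-voom and the block. Cav3 passed at -0.399 with the block and -0.3742 with limma-voom and the block; without single libraries it ranged from -0.5127 to -0.2123, and Ptgfrn from -0.2588 to -0.1824. The direction turned for Cd9 with limma-voom (0.0067, and 0.0058 with the block) and for Rac1 after quantile normalization (-0.0011). Without single libraries it turned for Cd9 (-0.1524 to 0.0544), Kirrel (-0.0652 to 0.099) and Rac1 (-0.0205 to 0.0738), and for the log2 ratios of Dysf to Myof (-0.0594 to 0.1399), Dock1 to Elmo2 (-0.0853 to 0.0023) and Cav3 to Cav1 (-0.2608 to 0.0935), a setting chosen for the ratios after seeing the data. The cause was not tested.

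Without a filter 801 of 26302 genes passed, against 1926 of 12770 with the minimum mean of 0.5 FPKM. The number was 3563 of 12770 with the replicate block and 4033 of 12770 with limma-voom and the block. Leaving out single libraries gave 844 of 12775 to 2101 of 12757. In the lists, 2 of 16 caveolar, 5 of 24 adhesion and 2 of 56 actin genes passed without a filter. With the block, 11 of 29 repair, 8 of 16 caveolar and 10 of 48 actin genes passed, against 27.9% of all genes. With limma-voom and the block, 13 of 29 repair, 9 of 16 caveolar, 6 of 20 tetraspanin and 13 of 48 actin genes did. Over all genes it was 4033 of 12770 in that setting. Leaving out single libraries gave 2 to 5 of 16 caveolar, 5 to 8 of 21 adhesion and 2 to 8 of 48 actin genes. The block changed the call of no other member. With 3 libraries a group, differences within the stated intervals could not be resolved.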
